A study of Mus musculus with 6 samples.

Results

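Collagen and extracellular matrix genes were followed in an eCLIP experiment on MLTC-1 cells, a single cultured line derived from a mouse tumour of Leydig cells, the steroid-making cells of the testis. The genes were taken by a name rule, as collagen chains, fibrillins, periostin, lysyl oxidases, follistatin-like 1, fibronectin, SPARC, TIMPs, laminins, thrombospondins, perlecan, nidogens, fibulins and latent TGF-beta binding proteins. That set was chosen with earlier results of these data known. They held 680 of the 55449 peaks in the table and 60 of its 10818 gene names. The name rule takes 84 genes of the RefSeq annotation, so 24 had no peak, among them Col7a1, Col11a1, Col17a1, Lamb3, Timp4 and Fbln5.

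In eCLIP, proteins are crosslinked to RNA by ultraviolet light, and the RNA fragments recovered with an antibody against the protein of interest are read out by sequencing. There were 2 immunoprecipitation (IP) libraries with an antibody against ZFP36L2 and 2 inputs of those, against 1 IP library with rabbit IgG and 1 input of it. All 6 libraries are labelled as MLTC-1 cells exposed to 254 nm light at 400 mJ per cm2, and an input is the RNA bound by all proteins. Each peak came with the authors' log2 fold change of ZFP36L2 over IgG and an adjusted p, without values for single libraries, so neither the depth nor the spread between libraries behind a value is known. RNA of heart muscle genes, which are not markers of a Leydig line, was also in the table: all 22 cardiac markers listed had peaks, 981 in all, with 4.59% called higher, 0.204% called lower and a median of 0.28 per the authors' deposited table. Most of these peaks belonged to Ttn, with 566 peaks and 18 called higher, followed by Ryr2, with 117 and 12. The source of this heart muscle RNA, and its part in the matrix gene values, was not tested.

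The extracellular matrix is the mesh of secreted proteins around cells. Fibrillar collagens give it tensile strength, collagen IV and laminins build the basement membrane sheet, fibrillins form microfibrils that hold latent TGF-beta, and lysyl oxidases crosslink collagen and elastin. In the testis, basement membrane surrounds the tubules and the vessels of the interstitium where Leydig cells lie. ZFP36L2 is a CCCH zinc finger protein known for binding AU-rich elements, mostly in 3′ UTRs, and for promoting decay of those mRNAs.

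A peak was called higher or lower with ZFP36L2 if it passed an adjusted p of 0.05 and its log2 fold change was 1 or greater in size. Among the matrix peaks, 19 (2.79%) were called higher, against 2.22% of all peaks in the table. Another 32 (4.71%) were called lower, against 5.44% of all peaks. Both shares were near those of the whole table at this threshold. At an adjusted p under 0.01, 13 matrix peaks (1.91%) were called higher, against 1.9% of all peaks, and 13 (1.91%) were called lower, against 3.36% of all peaks. The remaining 629 peaks passed in neither direction, although 67 of them stood at 1 or above and 255 at -1 or below on the log2 scale. By gene, 11 of 60 (18.3%) had a peak called higher, where 5.04% of all gene names did, and 18 (30%) had a peak called lower, where 17.3% did. Matrix genes carried 11.33 peaks each on average, against 5.13 over all gene names, so their shares of genes with a call cannot be read against the table as a difference in how often a peak was called. Col1a2, Col4a1, Fbn1 and Hspg2 had peaks of both kinds. Over the whole table, the shares called higher and lower were 2.03% and 5.42% at a size of 2 or more, 2.22% and 5.41% after centring on the median, and 2.22% and 5.44% by the adjusted p alone.

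The median over the 680 peaks was -0.66, against -1.06 over all peaks, on the log2 scale of the authors' deposited table. On that scale 66.8% of matrix peaks lay below 0, and 76.2% of all peaks did. The table as a whole was shifted below 0, and relative to its median the matrix median stood 0.40 higher. The smallest change that was called was 2.24 for a higher peak and -2.80 for a lower one, so both sizes exceed the threshold by more than the shift of the table. No p was recomputed against the shifted 0. Peaks that touched each other were common, with 272 of the 680 in 133 runs of 2 or more, and such peaks are not independent. Merged, the calls came from 17 stretches called higher and 27 called lower, and no stretch held both.

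**Figure D1:**
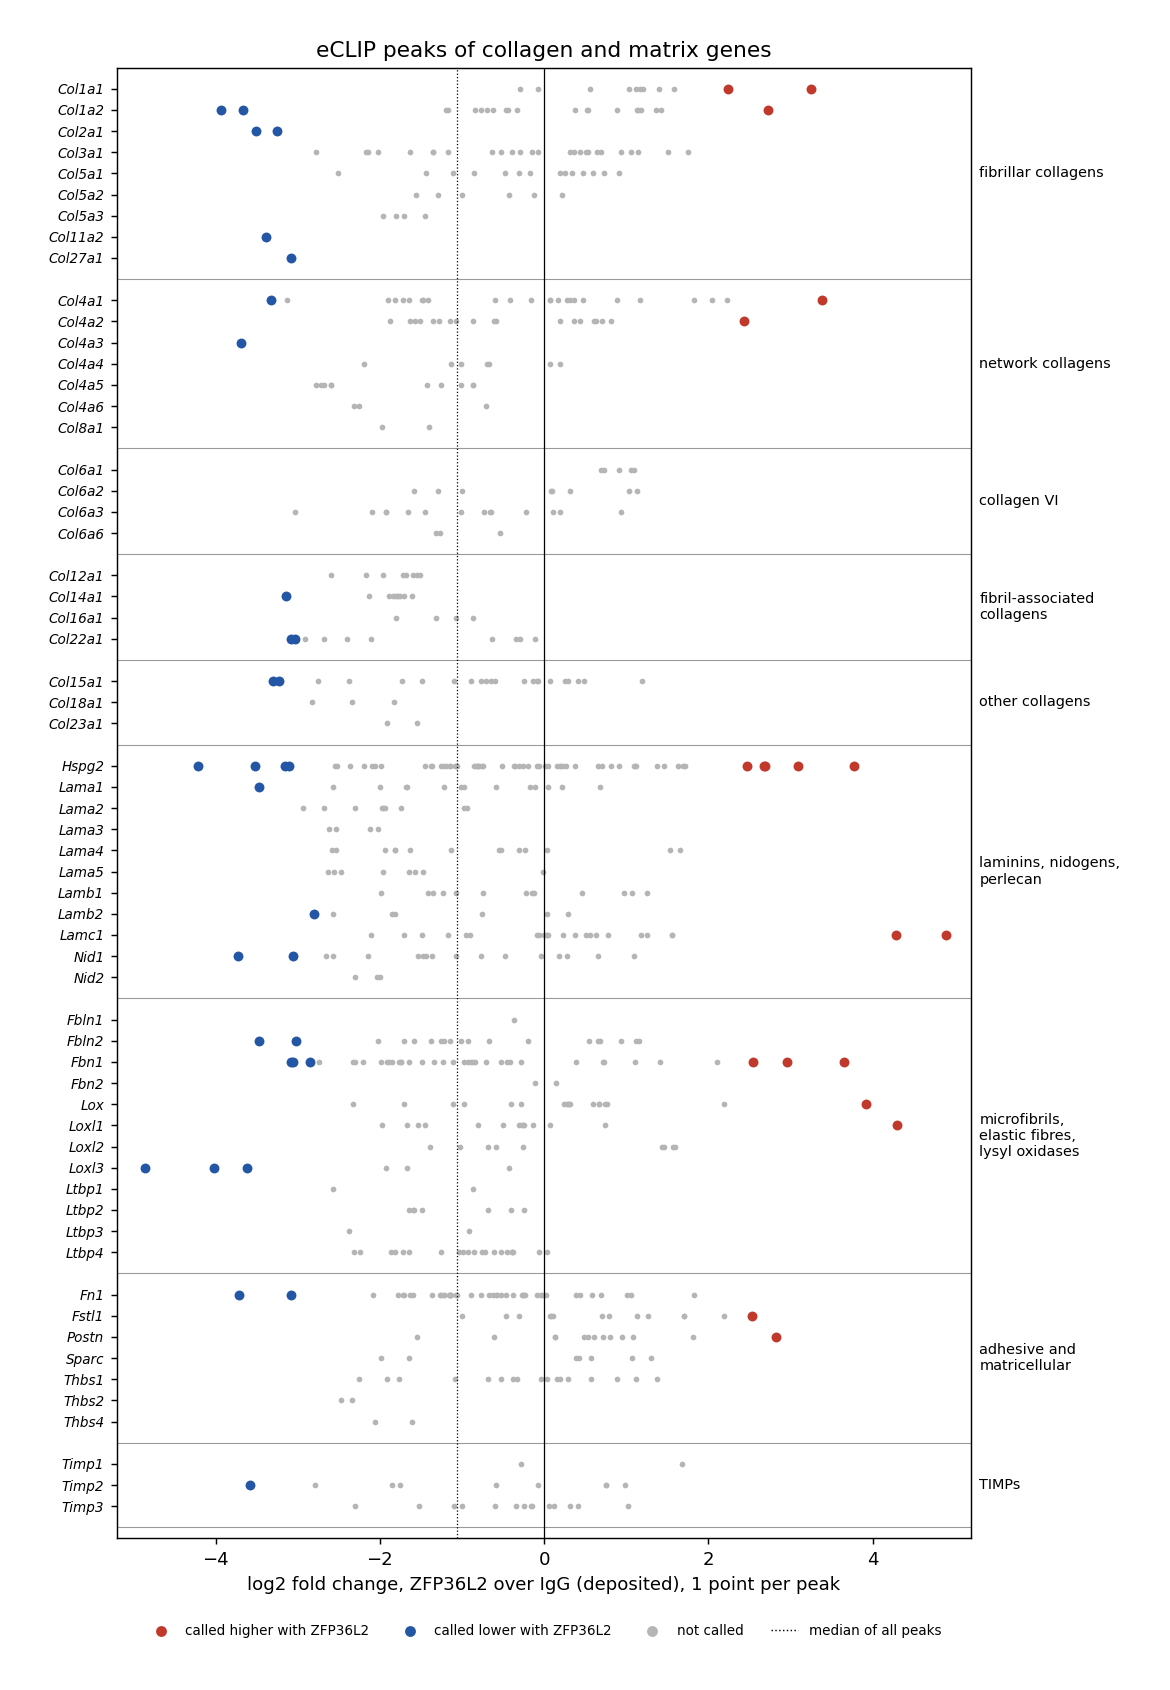
Log2 fold change of ZFP36L2 over IgG (x axis) for each of the 680 peaks of the 60 matrix genes (y axis, grouped by role), 1 point per peak, with called peaks coloured and the median of all 55449 peaks as a dotted line. Calls in both directions occur in 5 of the 9 role groups, and the called peaks higher with ZFP36L2 are the right-hand points of genes such as Lamc1, Loxl1, Lox and Fbn1.

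Of the 19 matrix peaks called higher, 10 lay in 3′ UTRs, 9 in coding sequence and none in an intron. The 3′ UTRs of the matrix genes held 114 peaks, and 10 of these (8.77%) were called higher, against 1.46% of the 7537 3′ UTR peaks in the table. Coding peaks were called higher at 2.11% (9 of 427), against 2.35% in the table, and intronic peaks at 0 of 128, against 2.17%. At that share, 128 intronic peaks are too few to show a difference. For peaks called lower, the matrix shares were 2.63% in 3′ UTRs (3 peaks), 3.98% in coding sequence (17 peaks) and 9.38% in introns (12 peaks), against 4.83%, 3.74% and 7.04% in the table. None of the 11 5′ UTR peaks was called, where 3.18% of such peaks in the table were called higher and 5.78% lower. These shares are descriptions, as peaks of a gene share its RNA and no test was run on them. The gene set was also chosen with earlier results of these data known, so it is not independent of them. Higher calls in 3′ UTRs were not particular to the matrix genes. The cardiac markers had 43 3′ UTR peaks. Of these, peaks of Atp2a2 (3.18), Myl3 (2.54), Pln (2.67) and Xirp1 (3.50) were called higher per the authors' deposited table.

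The authors' deposited table gave the 114 matrix 3′ UTR peaks, called or not, a median of 0.29 on the log2 scale, against -1.09 for the 3′ UTR peaks of all other genes. Coding peaks had medians of -0.70 in matrix genes and -0.72 elsewhere, and intronic peaks -1.22 and -1.31, per the authors' deposited table. The gap between matrix and other genes was 1.38 in 3′ UTRs, 0.02 in coding sequence and 0.09 in introns. Counting genes rather than peaks, 7 of 30 matrix genes with a 3′ UTR peak (23.3%) had one called higher, while 68 of 3379 other genes (2.01%) did, with 3.80 and 2.19 such peaks per gene. The other genes here are those with a 3′ UTR peak that carried 1 gene name. The median 3′ UTR value was above 0 in 14 of the 30 matrix genes (46.7%) and in 17.3% of the others. Taken over genes, the median of these values was -0.08 in matrix genes, so below 0, and -1.14 in the others, per the authors' deposited table.

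The contrast also appeared within genes. Of 29 matrix genes with peaks in both places, 20 (69.0%) had a higher median in the 3′ UTR than in the coding sequence, where 42.5% of 2094 other genes did. The median difference, 3′ UTR minus coding, was 0.34 in the matrix genes and -0.22 in the others, on the log2 scale of the authors' deposited table. Fbn1 had the widest gap, with medians of 2.76 in the 3′ UTR and -1.17 in coding sequence per the authors' deposited table. Loxl2, Col6a3, Ltbp1 and Sparc came next, with differences of 1.98, 1.77, 1.71 and 1.70 per the authors' deposited table. Ltbp1 had 1 3′ UTR peak and 1 coding peak, and Loxl2 had 8 and 1. An opposite order was widest in Loxl3, at -3.59, followed by Col4a4 and Col15a1 at -1.49 and -1.35 per the authors' deposited table, where Loxl3 had 1 coding peak and Col4a4 had 1 peak in each place.

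**Figure D2:**
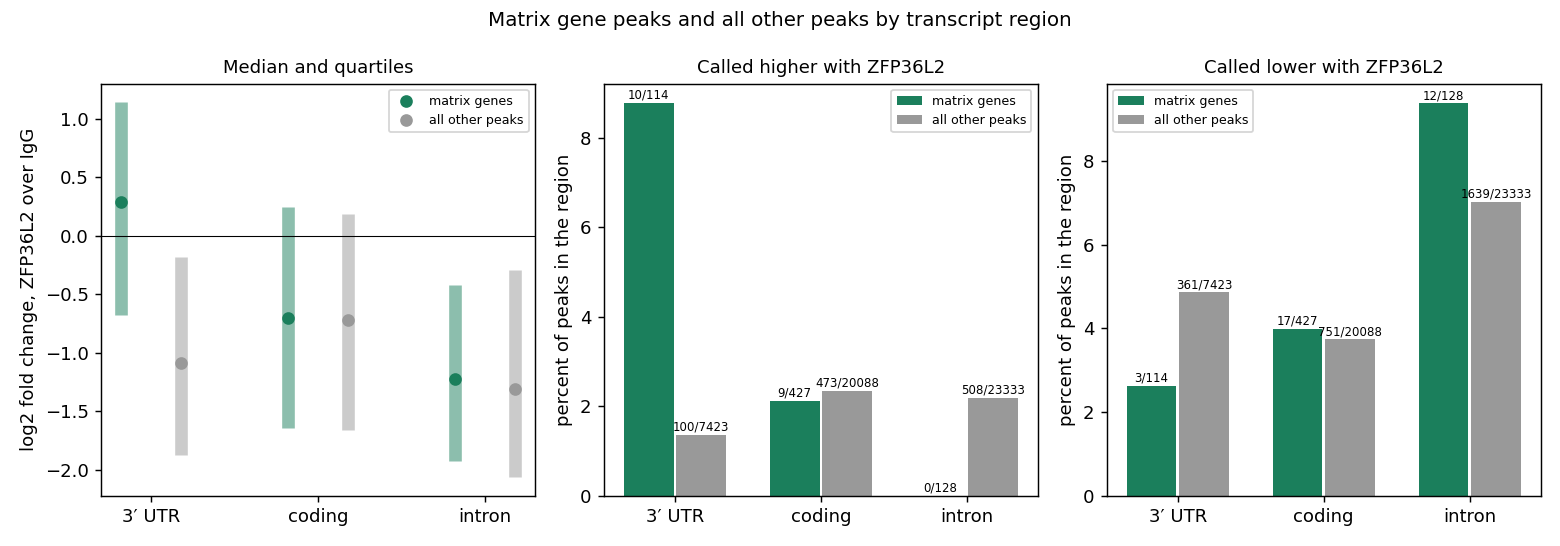
Median and quartiles of log2 ZFP36L2 over IgG (left), and the percent of peaks called higher (middle) or lower (right), for matrix gene peaks beside all other peaks in 3′ UTRs, coding sequence and introns, with counts on the bars. The 3′ UTR peaks of matrix genes have a median of 0.29 and 10 of 114 called higher, and the coding pairs nearly coincide.

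Fibrillar collagens, which assemble into the banded fibrils of connective tissue, had 86 peaks in 9 genes, of which 3 were called higher and 6 lower. Col1a1, which encodes the main chain of type I collagen, had both of its called peaks in the 3′ UTR, side by side at chromosome 11, 94952424 to 94952440 and 94952441 to 94952483 (build mm10). They had log2 fold changes of 3.25 (adjusted p = 3.5e-06) and 2.24 (adjusted p = 0.027) per the authors' deposited table, and they end 602 and 559 bases before the end of the RefSeq gene. The other 2 Col1a1 peaks in the 3′ UTR had 1.20 and 1.40 and were not called, and its 7 coding peaks ranged from -0.29 to 1.58 per the authors' deposited table. All 11 Col1a1 peaks were above the median of the whole table.

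Col1a2, the partner chain of type I collagen, differed from Col1a1 in having coding calls in both directions. A coding peak at chromosome 6, 4539505 to 4539537, was called higher with 2.73 (adjusted p = 0.0025) per the authors' deposited table, and 2 coding peaks upstream, at 4531932 to 4531949 and 4532744 to 4532788, were called lower with -3.66 (adjusted p = 0.0028) and -3.93 (adjusted p = 0.00046). Its 3 3′ UTR peaks lay between -0.77 and 0.53 per the authors' deposited table and were not called. The higher peaks of these chains of the same trimer thus lay in different regions.

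Col3a1, the type III chain of elastic tissues, had 26 peaks, more than any other collagen, and none was called (smallest adjusted p = 0.083 per the authors' deposited table). Its 2 3′ UTR peaks stood at 0.94 and 1.15 and its 24 coding peaks ran from -2.78 to 1.75 per the authors' deposited table. Col5a1, which helps to start type I fibrils, had 14 uncalled peaks between -2.51 and 0.91 per the authors' deposited table. Of the cartilage collagens, Col2a1 was called lower in both of its coding peaks, which touch, with -3.51 and -3.25 per the authors' deposited table. The single intronic peak of Col11a2 was called lower at -3.39 (adjusted p = 0.014) per the authors' deposited table. Col27a1 also had 1 peak, intronic and called lower at -3.08 (adjusted p = 0.040) per the authors' deposited table. Over all peaks, 2.22% were called higher and 5.44% lower, so these few peaks cannot show a direction for such collagens.

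Network collagens had 67 peaks in 7 genes, 2 called higher and 2 lower. Col4a1 and Col4a2 encode the chains of the collagen IV trimer found in nearly all basement membranes, and each had 1 peak called higher near its 3′ end. The Col4a1 peak lay in the 3′ UTR at chromosome 8, 11199327 to 11199426, 904 bases before the end of the gene, with 3.38 (adjusted p = 2.6e-07) per the authors' deposited table. The RefSeq span of the lncRNA gene Gm15418 covers the same bases. All 7 Col4a1 3′ UTR peaks were above 0, from 0.07 to 3.38, whereas its 3 intronic peaks were between -1.90 and -1.48 per the authors' deposited table. A coding peak of Col4a1 at 11239832 to 11239849 was called lower at -3.33 (adjusted p = 0.016) per the authors' deposited table.

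The Col4a2 peak called higher was coding, at chromosome 8, 11448224 to 11448325, 962 bases before the gene's end, with 2.43 per the authors' deposited table, and its adjusted p of 0.039 was close to the threshold. Its 3 3′ UTR peaks had -0.59 to 0.82 per the authors' deposited table. Col4a3, Col4a4, Col4a5 and Col4a6, chains of specialised basement membranes, had 1, 7, 10 and 3 peaks and no higher call. With 2.22% of all peaks called higher, so few peaks cannot set these chains apart from Col4a1 and Col4a2. The single peak of Col4a3, intronic, was called lower at -3.69 (adjusted p = 0.00015) per the authors' deposited table. The 10 peaks of Col4a5, all below 0, were not called. Nor were those of Col4a4, from -2.19 to 0.20, or of Col4a6, from -2.31 to -0.71, per the authors' deposited table.

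Collagen VI, which forms beaded filaments near basement membranes, had 30 peaks and no call. Col6a1 had 5 peaks between 0.69 and 1.09 and Col6a2 had 8 between -1.58 and 1.13 per the authors' deposited table. A coding peak of Col6a3 at -3.03 was the nearest miss on the lower side, with an adjusted p of 0.054 per the authors' deposited table. Collagens that decorate fibrils had 32 peaks, every value below 0, and 3 lower calls. Of these, 2 were intronic peaks of Col22a1, known from tissue junctions such as those of muscle and tendon, with -3.08 and -3.03, and they were also the last on the called side (adjusted p = 0.043 each per the authors' deposited table). The other was a coding peak of Col14a1 at -3.14 (adjusted p = 0.024) per the authors' deposited table, and Col12a1 had 8 uncalled peaks from -2.59 to -1.51. Among the remaining collagens Col15a1, a basement membrane proteoglycan collagen, had 2 of 22 peaks called lower, both coding, with -3.30 and -3.23 per the authors' deposited table. Col18a1, the source of endostatin, had 3 uncalled coding peaks between -2.83 and -1.83 per the authors' deposited table. The membrane collagen gene Col23a1 had 2 uncalled peaks at -1.91 and -1.55 per the authors' deposited table.

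The bases under a peak could be read for few of the matrix peaks, as no genome was used and 5 of them, all uncalled, fell inside a 300-base start-site window of the RefSeq sequence table (GRCm38.p6, the same build as mm10). The following are shown 5′ to 3′ on the strand of the gene, in lower case because no motif is marked, as an example of each of 3 regions: coding sequence of Col5a1 (chr2:28032794-28032829), an intron of Col15a1 (chr4:47209344-47209390) and the 5′ UTR of Col4a5 (chrX:141475435-141475448), all on the plus strand.
Col5a1 coding: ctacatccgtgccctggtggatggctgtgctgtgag
Col15a1 intron: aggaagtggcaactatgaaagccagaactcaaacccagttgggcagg
Col4a5 5′ UTR: gagtgaggaaagtt
Their G and C content was 61.1%, 51.1% and 42.9%, and their log2 fold changes per the authors' deposited table were 0.47, -0.71 and -1.25 (adjusted p = 1 for each).

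Basement membrane glycoproteins had 175 peaks in 11 genes, with 7 called higher and 8 lower. Lamc1 encodes the gamma 1 chain shared by most laminin trimers, and it held both of the best-supported higher peaks of all matrix genes. A coding peak near the start of the gene, at chromosome 1, 153332148 to 153332183, had 4.89 (adjusted p = 2.2e-09) per the authors' deposited table, and its neighbour at 153332225 to 153332286 had -2.11 and was not called. The other Lamc1 call was in the 3′ UTR, at 153221109 to 153221149, 2187 bases before the end, with 4.29 (adjusted p = 2.8e-08) per the authors' deposited table. Its other 3 3′ UTR peaks had 1.18, 1.25 and 1.56 per the authors' deposited table, all above 0 and none called. Among the 1231 higher peaks of the table, these Lamc1 peaks ranked 467 and 534 by adjusted p. Such a rank depends on depth, which is unknown, as well as on the size of the change.

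Other laminin chains had no peak called higher, but none had more than 14 peaks and 2.22% of all peaks were called higher. Lamb1, the beta 1 chain, had 13 uncalled peaks from -1.99 to 1.25 per the authors' deposited table. Lama1, the alpha 1 chain, had an intronic peak called lower at -3.47 (adjusted p = 0.013) and Lamb2 a coding one at -2.80 (adjusted p = 0.028) per the authors' deposited table. The difference between laminin chains was not tested. Nid1, the nidogen that links laminin to collagen IV, had 2 neighbouring peaks called lower, an intronic one of 2 bases with -3.73 (adjusted p = 0.00026) and a coding one of 57 bases with -3.06 (adjusted p = 0.010) per the authors' deposited table. They were separated by 2 bases.

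Hspg2 encodes perlecan, the large heparan sulfate proteoglycan of basement membranes, and had the most peaks of any matrix gene, 62, with 5 called higher and 4 lower. The 5 higher peaks were all coding and fell in 2 parts of the gene, 3 between 137528852 and 137533451 and 2 between 137559177 and 137559420 on chromosome 4. The best had 3.78 (adjusted p = 0.00055) per the authors' deposited table, and the other 4 ranged from 2.47 to 3.09. The peak with 2.69 was the last matrix peak inside the threshold (adjusted p = 0.044 per the authors' deposited table). Of the lower peaks, 2 were adjacent in an intron near the start, at 137473742 to 137473805, with -4.21 (adjusted p = 1.2e-05) and -3.52 (adjusted p = 0.00091), and 2 were coding, with -3.10 and -3.16, per the authors' deposited table. The lower coding peak with -3.16, at 137550397 to 137550453, lay between the 2 parts that held the higher ones. Its 3 3′ UTR peaks, all uncalled, lay between -2.19 and -0.31 per the authors' deposited table.

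Microfibril, elastic fibre and crosslinking genes had 139 peaks in 12 genes, 5 called higher and 8 lower. Fbn1, which encodes the main microfibril protein fibrillin 1, had 3 of its 4 3′ UTR peaks called higher. A touching pair at chromosome 2, 125301336 to 125301370 and 125301296 to 125301335, had 3.65 (adjusted p = 6.2e-05) and 2.96 (adjusted p = 0.026), and a broad peak of 185 bases at 125300726 to 125300910, 132 bases before the end, had 2.55 (adjusted p = 0.0015) per the authors' deposited table. The fourth had 0.72 per the authors' deposited table. Within the coding sequence of Fbn1, 3 of 24 peaks were called lower, with -3.06, -2.85 and -3.08 per the authors' deposited table, and none higher. All its 3′ UTR values were thus above 0 and its calls changed direction between regions.

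Among the lysyl oxidases, Lox had 18 peaks, Loxl1 14, Loxl2 9 and Loxl3 6. Over all peaks, 2.22% were called higher and 5.44% lower, and the difference between these genes was not tested. Lox had a 3′ UTR peak called higher at chromosome 18, 52516660 to 52516749, 600 bases before the end, with 3.92 (adjusted p = 1.1e-05) per the authors' deposited table. The other 7 3′ UTR peaks of Lox were above 0 as well, from 0.24 upward, and its 3 5′ UTR peaks were between -2.33 and -0.98, per the authors' deposited table. Loxl1, which is tied to elastic fibres, had 1 of 10 coding peaks called higher, at chromosome 9, 58294358 to 58294458, with 4.30 (adjusted p = 7.9e-06) per the authors' deposited table. Its single 3′ UTR peak had 0.74 per the authors' deposited table and was not called. Loxl2 had 8 3′ UTR peaks from -1.02 to 1.60 per the authors' deposited table, none called.

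Loxl3 had 3 of 6 peaks called lower. A touching pair in its 3′ UTR at chromosome 6, 83051629 to 83051681, had -4.86 (adjusted p = 1e-07) and -4.02 (adjusted p = 5.8e-05) per the authors' deposited table, and the first was the best-supported lower peak of all matrix genes. The RefSeq span of the neighbouring gene Htra2 covers both peaks. An intronic Loxl3 peak had -3.62 (adjusted p = 0.0038) per the authors' deposited table. Fbln2, an elastic fibre and basement membrane fibulin, had 2 coding peaks called lower, with -3.47 and -3.02 per the authors' deposited table. The latent TGF-beta binding proteins had no call: Ltbp4 had 21 peaks from -2.32 to 0.04, and a coding peak of Ltbp3 at -2.38 just missed (adjusted p = 0.055 per the authors' deposited table).

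**Figure D3:**
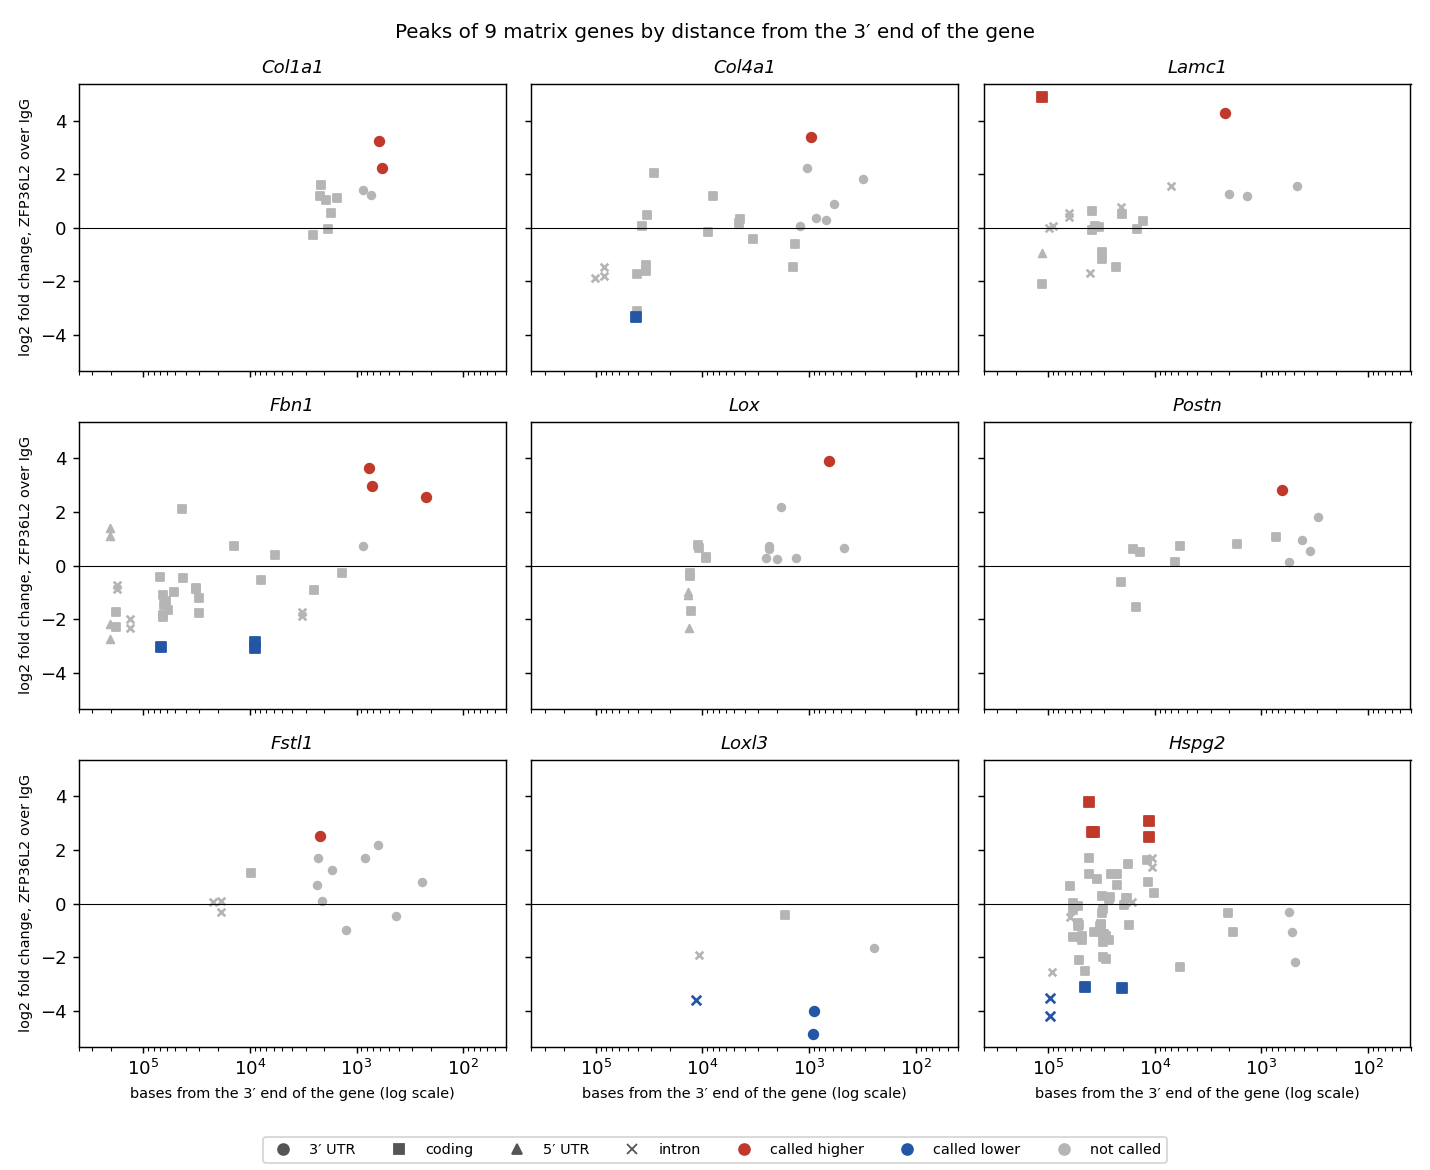
Log2 fold change of ZFP36L2 over IgG (y axis) against distance from the 3′ end of the RefSeq gene in bases (x axis, log scale, 3′ end to the right) for the peaks of 9 matrix genes, with region as the symbol and call as the colour. In Col1a1, Col4a1, Fbn1, Lox and Postn the peaks called higher are 3′ UTR peaks near the 3′ end, while those of Hspg2 are coding and the 3 called peaks of Loxl3 are all lower.

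Adhesive and matricellular genes had 99 peaks in 7 genes, with 2 called higher and 2 lower. Postn, which encodes periostin, a matricellular protein of remodelling connective tissue, had a 3′ UTR peak called higher at chromosome 3, 54390351 to 54390452, 589 bases before the end, with 2.82 (adjusted p = 0.00042) per the authors' deposited table. Its 5 3′ UTR peaks were all above 0, from 0.13 upward, per the authors' deposited table. Fstl1, a secreted glycoprotein that binds BMP and activin ligands, had 10 3′ UTR peaks, 1 of them called higher at chromosome 16, 37834280 to 37834362, with 2.53 (adjusted p = 0.0095) per the authors' deposited table. The RefSeq span of the lncRNA gene Gm41452 covers the same bases. Another Fstl1 3′ UTR peak had 2.19 and fell outside the threshold (adjusted p = 0.074 per the authors' deposited table).

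Sparc, a collagen-binding matricellular protein gene, had the nearest miss on the higher side, a 137-base 3′ UTR peak at chromosome 11, 55395111 to 55395247, with 1.30 (adjusted p = 0.055) per the authors' deposited table. Its 3 3′ UTR peaks were above 0 and 2 of its 4 coding peaks were below -1.6 per the authors' deposited table. Fn1, which encodes fibronectin, had 44 peaks, 37 of them coding and uncalled, and its 2 calls were touching intronic peaks at chromosome 1, 71634943 to 71634985, both lower, with -3.72 (adjusted p = 0.00062) and -3.08 (adjusted p = 0.025) per the authors' deposited table. Thbs1, thrombospondin 1, which activates latent TGF-beta, had 17 peaks from -2.25 to 1.38 and no call, and its 4 3′ UTR peaks had -0.68 to 0.03, per the authors' deposited table.

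The TIMPs, which inhibit matrix metalloproteinases, had 25 peaks and 1 call, a 3′ UTR peak of Timp2 called lower at chromosome 11, 118303339 to 118303377, with -3.58 (adjusted p = 0.0054) per the authors' deposited table. Timp3 had 14 uncalled peaks from -2.30 to 1.02, and the 2 Timp1 peaks had -0.28 and 1.68, per the authors' deposited table.

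Across groups, the 3′ UTR peaks called higher lay in Lamc1, Col4a1, Col1a1, Lox, Fbn1, Postn and Fstl1, 132 to 2187 bases before the end of the RefSeq gene with a median of 652. All 114 matrix 3′ UTR peaks lay 100 to 3055 bases before it, with a median of 832, which covers the whole range of the called ones. The 10 called higher were 17 to 185 bases long, and all 114 were 7 to 263 bases long. Over all regions the median length was 45 bases for peaks called higher, 32 for those called lower and 36 for uncalled ones, and the lower ones had a median log2 fold change of -3.32 per the authors' deposited table.

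Genes that act on or receive the matrix were then counted from lists drawn up for this comparison. The list for makers of collagen, which hydroxylate, fold, export and trim the chains, had 3 of 129 peaks called higher and 3 lower, in 25 of 29 listed genes. The higher ones were 2 touching intronic peaks of Plod2, a lysyl hydroxylase, with 2.24 and 2.32, and an intronic peak of Mia3, the exporter TANGO1, with 2.0, per the authors' deposited table. The lower ones were in P3h1, a prolyl 3-hydroxylase (-3.43), Sec24d, a COPII coat subunit (-3.23), and Tango2 (-2.88), which is not known as a collagen exporter, per the authors' deposited table. The counts of this list include the 11 peaks of Tango2. None of the 12 3′ UTR peaks in this list was called. Over all 3′ UTR peaks, 1.46% were called higher and 4.83% lower, so 12 peaks are too few to show a difference.

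None of the other 4 lists had a peak called higher. Matrix receptors had 0 of 167 higher and 11 lower, among them 4 peaks of Itga9 and 2 3′ UTR peaks of Itga4, both integrin alpha chains, and 3 of Dag1, dystroglycan, with best values of -3.42, -3.64 and -3.16 per the authors' deposited table. Proteoglycan cores had 0 of 104 higher and 10 lower, of which 8 belonged to Sdc4, the focal adhesion syndecan, down to -3.73, per the authors' deposited table. Matrix proteases had 0 of 146 higher and 4 lower, 3 of them in the coding sequence of Adamts9 and down to -3.95 per the authors' deposited table, and the other in Adam12. TGF-beta signalling genes had 0 of 187 higher and 10 lower, led by 2 touching intronic peaks of the receptor gene Bmpr1a at -5.04 (adjusted p = 3.2e-10) and -4.87 per the authors' deposited table. The shares over all peaks were 2.22% higher and 5.44% lower, and no difference between lists was tested.

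Marker lists show which other RNAs were in the same table. Of 16 Leydig markers, 10 had a peak, with 35 of 112 peaks called higher, 33 of them in Cyp11a1, the cholesterol side-chain cleavage enzyme, and the median was 0.21 per the authors' deposited table. Cyp17a1, Hsd3b1, Hsd3b6, Hsd17b3, Insl3 and Nr0b1 had none. Of the 981 cardiac marker peaks, 45 in 9 genes were called higher and 2 lower, led by Xirp1 at 4.80 and Ryr2 at 4.17 per the authors' deposited table. Fibroblast markers had peaks in 10 of 14 genes with 1 of 47 called higher (Vim, 3.14) and 1 lower (Pdgfra, -3.12), and a median of -1.02 per the authors' deposited table. Fap, Tcf21, Clec3b and S100a4 had no peak. Endothelial markers had peaks in 12 of 13 genes, with 0 of 112 higher, 2 lower (Ptprb and Kdr) and a median of -1.02, and smooth muscle markers in 4 of 7, with none of 18 called, per the authors' deposited table. All 6 libraries are labelled as MLTC-1 cells, and whether any of this RNA came from other cells was likewise not tested. Numbers of cells and RNA per cell cannot be told apart in such data.

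**Figure D4:**
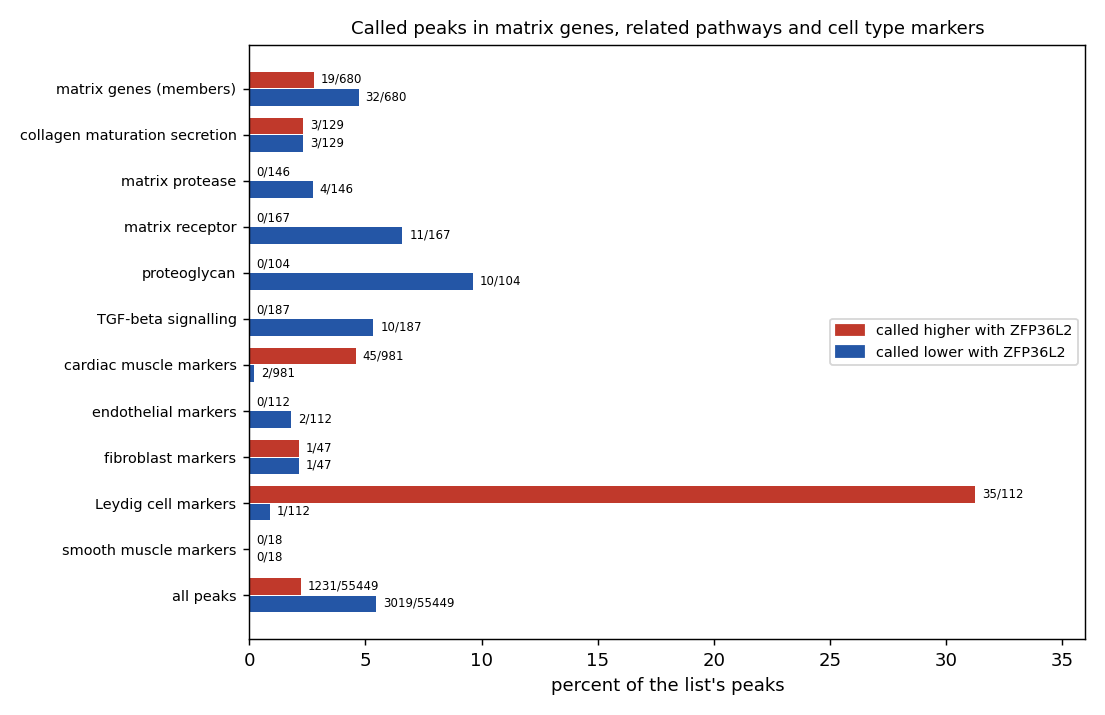
Percent of peaks called higher or lower with ZFP36L2 (x axis) for the matrix genes, 5 related pathways, 5 cell type marker lists and all peaks (y axis), with counts beside the bars. Receptors, proteoglycans, proteases and TGF-beta genes have no peak called higher, and the Leydig bar is mostly Cyp11a1.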

How the data were processed

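The submitters' processing notes name build mm10 and the tools DESeq2 1.34.0, STAR 2.7.7a, cutadapt 3.2 and UMI-tools 1.1.1. Their roles, and how peaks were called, libraries pooled, values scaled and inputs used, are not given in the sources. Per peak, the authors deposited a log2 ratio of ZFP36L2 to IgG (direction from the table's name), and a p-value and an adjusted p as −log10 values to 2 decimals, converted back here. No count is given, so depth is unknown. The IgG arm is 1 IP library, and nothing says that libraries came from separate cultures, so the p-values may measure technical spread.

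Members were matched by gene name. All 680 peaks carried 1 name and lay inside the RefSeq span (GRCm38.p6). Of these, 57 also lay over the span of another RefSeq gene, counted without regard to strand. Calls use p-values adjusted over all 55449 peaks. A Benjamini-Hochberg recomputation matched within 0.0099 (−log10). Touching peaks of a gene were merged in an alternative. The authors' values were used as planned, and the planned motif search was not made without a genome. Code (Python 3.11.15, pandas 2.3.3) was tested on simulated data. Named genes are those with a peak called higher, the 10 best and 5 most negative among those called lower, the 5 with most peaks, peaks nearest the thresholds, up to 3 per role group and a fixed set; others were named after their values were seen. Members and lists were chosen with earlier results of these data known.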

Additional observations from a re-analysis of the deposited data

How the results depend on the processing

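The counts of 19 peaks called higher and 32 lower, in 11 and 18 genes, were the same with the adjusted p alone and with recomputed adjusted p-values. Requiring a log2 change of 2 in size could not change them, since the smallest called sizes were 2.24 (higher) and 2.8 (lower). Centring on the median could not remove a call either, since it kept the deposited adjusted p and every called size exceeded the threshold by more than the shift. Keeping peaks of 1 gene name could not change the counts, as 0 matrix peaks carried several names. At an adjusted p under 0.01, 13 peaks in 10 genes were called higher and 13 in 9 genes lower, and 8 of the 10 3′ UTR peaks called higher remained. With 1 peak per gene, that of the smallest adjusted p, 9 genes were called higher, 6 of them by a 3′ UTR peak, and 16 lower. This choice keeps every gene with a call, so it cannot check the effect of many peaks per gene. Exonic peaks alone gave 20 lower calls in 12 genes, and intronic peaks alone gave 0 higher calls in 0 genes and 12 lower calls in 9 genes. The matrix median of -0.66 was 0.40 after centring and -0.93 as a median over genes. Without Fbn1, an alternative chosen after seeing the data, 7 3′ UTR peaks were called higher, and without Hspg2, likewise, 14 peaks in all were. Such settings only take away the calls of the gene left out. Leaving out a library could not be run. No paired analysis was possible because the table holds no values per library. The depth behind each peak is unknown and limits what an uncalled peak shows: uncalled matrix peaks reached 3.13 in size on the log2 scale.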
